A study of Oncorhynchus mykiss with 6 samples.

Results

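The genes described are the MAP kinase modules and their phosphatases, with a few related stress kinases, as transcribed in heat-stressed livers of the rainbow trout, a salmonid whose genome was duplicated and in which many genes have several copies. Members were chosen by the start of the gene symbol in the deposited table, case ignored. The rule uses no measured value, but it was drawn up with earlier results of these data known. The symbol had to start with mapk, map2k, map3k, map4k, dusp, rps6ka, spry, spred, ppp1r, ppp2r, pim and a digit, sgk or trib. This gave 55 members among 5045 listed genes, of which 4519 carry a symbol. RNA-seq libraries of whole liver were compared between a heat group at 24 °C for 8 h and a control group at 18 °C, with 3 libraries in each. The labels name no strain, age, sex or further treatment for either group. Nothing in them says that the libraries of a group came from separate fish. A p-value here sets the difference between the groups against the spread among libraries of a group, which may be only technical. The table holds only genes that its authors had already selected as changed between the same 6 libraries, where the adjusted p reached 0.049875 at most and the log2 fold change was no smaller than 1.00019 in size, from the authors' deposited table. Passing a test is therefore fixed by the list, and genes of these families outside the list were not analysed here.

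A MAP kinase module is a relay in which a MAP3K phosphorylates a MAP2K and the MAP2K phosphorylates a MAP kinase. The ERK kinases mostly carry growth factor signals, whereas JNK and p38 are activated by heat, osmotic shock, oxidants and cytokines, and ERK5 answers to both kinds of stimulus. Dual-specificity phosphatases (DUSPs) remove the activating phosphates, Sproutys restrain receptor signalling to ERK, and targeting subunits steer protein phosphatases PP1 and PP2A to their substrates. In liver these routes meet the hormonal control of glucose, glycogen and lipid metabolism. The values below are mRNA levels and say nothing of phosphorylation or enzyme activity.

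Heat changed the members in both directions. With limma-voom, 53 of the 55 members had enough reads to test, and 35 rose and 18 fell at a Benjamini-Hochberg adjusted p under 0.05. Of all 4766 listed genes tested, 100% passed that threshold, 58.1% in the direction of a rise and 41.9% in that of a fall. The members' share of rises, 66%, stood close to that background and is no result about the family as a whole. Counts by class below are to be read against the same background, and each rests on few genes. The median log2 fold change was 1.28 over the tested members and 1.13 over all tested genes. Among those that rose, the median was 1.58 in the members and 1.61 in all genes, and among those that fell it was -1.62 in the members and -1.47 in all genes. Scaling the libraries by the median of count ratios over the table's genes shifted the median of all genes by -0.89. This scaling takes most genes to be unchanged, which is not met in a list of genes selected as changed. It lowered the log2 fold changes by similar amounts. A call lost under it, here and below, therefore marks a rise that did not clearly exceed this shift. The members then split into 20 rises and 18 falls, 52.6% of those called, beside 46.5% over all genes called. No member changed sign under any scaling tried, but the authors' fold threshold was larger than the shift, so this was fixed by the list. FPKM values (fragments per kilobase of transcript, scaled to the library's mapped fragments) of the heat and control libraries did not overlap for 54 of the 55 members, against 99.4% of all listed genes. In whole liver, a change in the number of cells of a type and a change in RNA per cell cannot be told apart. Copies that share a symbol may also share reads, so the split between them is uncertain.

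**Figure D1:**
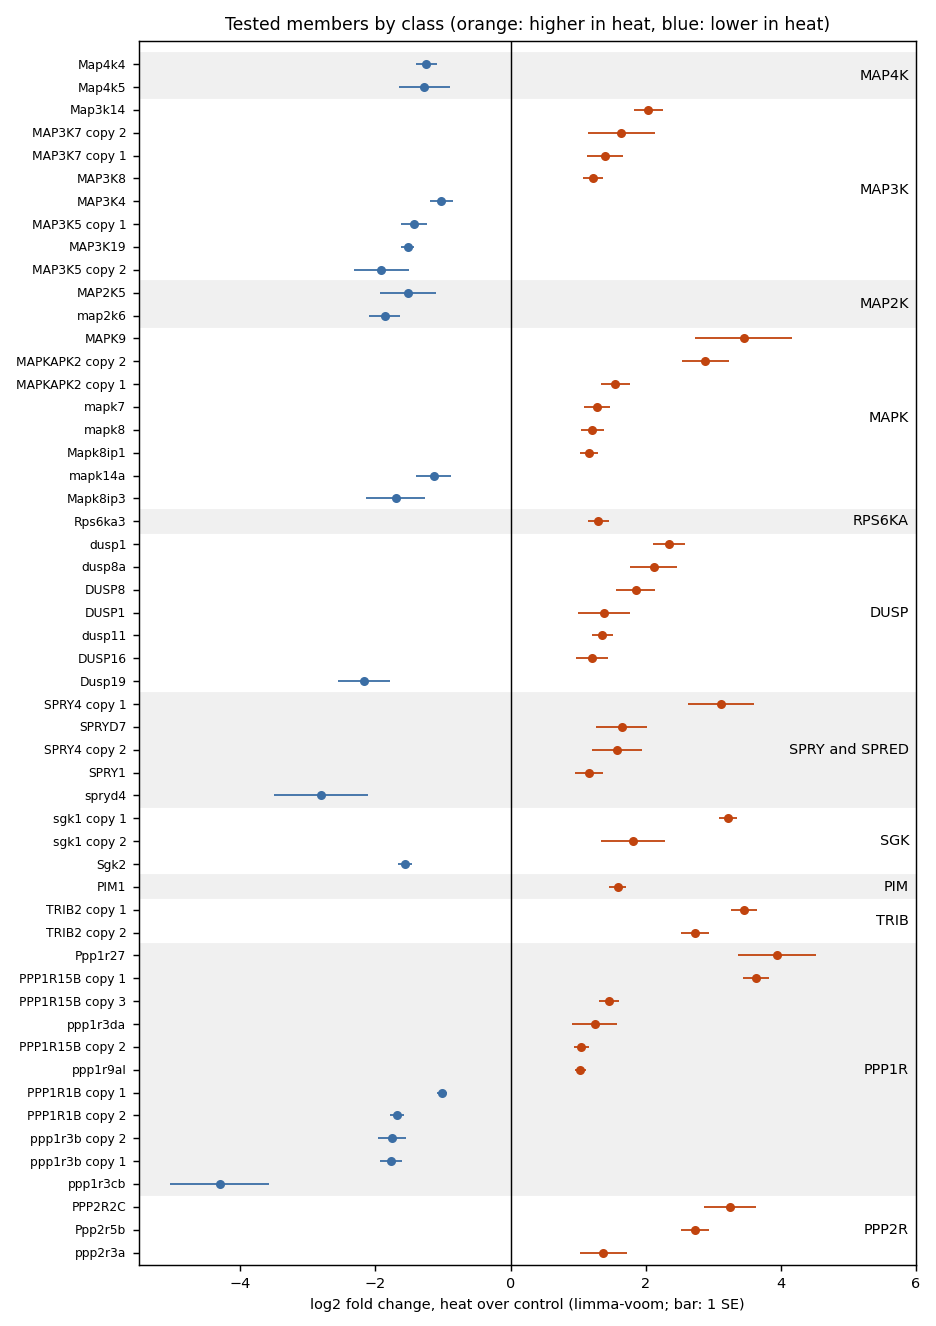
Each point is the log2 fold change (heat over control, x axis) of 1 of the 53 tested members, with a bar of 1 SE from limma-voom, grouped by class down the page. The MAP4K and MAP2K rows all lie left of 0, the TRIB and PPP2R rows all lie right of 0, and the MAP3K and PPP1R rows lie on both sides.

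Most members were scarce transcripts. The mean of the higher group ranged over the members from 0.0793 to 35.0 FPKM with a median of 2.05 FPKM, beside a median of 2.23 FPKM over all listed genes. The largest levels belonged to PPP1R1B, sgk1, Sgk2 and PPP1R15B.

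**Figure D2:**
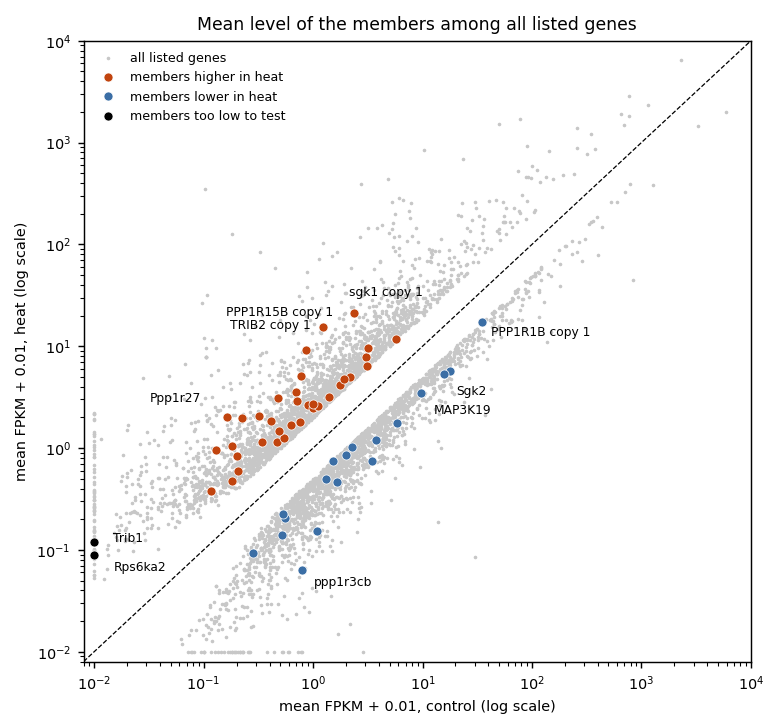
Mean FPKM + 0.01 in heat (y axis) against control (x axis), both on log scales, for all 5045 listed genes in grey and the 55 members in colour. The empty band along the dashed line of equal level is the authors' fold threshold, and the members lie across the lower and middle part of the range.

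At the head of the relay, both MAP4K members fell, beside 41.9% falls over all tested genes. Map4k4, a kinase that feeds JNK, had 0.758, 1.08 and 0.701 FPKM in the heat libraries and 2.004, 1.711 and 2.233 FPKM in the control libraries. Every heat library was below every control library, and the fall was 2.37-fold. Map4k5, a related kinase, fell 2.42-fold from limma-voom, with means of 0.216 FPKM in heat and 0.519 FPKM in control.

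The 8 MAP3K members split into 4 rises and 4 falls, beside 58.1% rises over all tested genes. Where a symbol had copies, they went the same way. The members that rose were Map3k14, MAP3K8 and both copies of MAP3K7. Map3k14 encodes NIK, the kinase of the non-canonical NF-kB pathway. It had 3.09, 3.04 and 2.57 FPKM in the heat libraries, against 0.821, 0.623 and 0.684 FPKM in the control libraries. The groups stood well apart, with a log2 fold change of 2.04 ± 0.21 (SE, limma-voom adjusted p = 3.11e-12). MAP3K8 encodes TPL2, which links inflammatory receptors to ERK, and averaged 4.11 ± 0.218 FPKM in heat and 1.74 ± 0.19 FPKM in control (SD, n = 3 each). MAP3K7 encodes TAK1, a kinase shared by cytokine signals to JNK, p38 and NF-kB. MAP3K7 copy 1 rose 2.63-fold and MAP3K7 copy 2 rose 3.12-fold, and with median-of-ratios scaling neither call held (limma-voom adjusted p = 0.076 and 0.156). Copy 2 rested on 31, 21 and 34 counts in the heat libraries and 7, 6 and 7 counts in the control libraries.

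MAP3K5, MAP3K4 and MAP3K19 fell. MAP3K5 encodes ASK1, a stress-activated kinase that acts on JNK and p38. Its copy 1 had 0.494, 0.509 and 0.444 FPKM in the heat libraries, against 1.4, 1.27 and 1.24 FPKM in the control libraries. Copy 2 was lower in abundance and had 0.155, 0.133 and 0.1 FPKM in the heat libraries, against 0.639, 0.426 and 0.472 FPKM in the control libraries. Neither copy overlapped between the groups, and the falls were 2.70-fold and 3.76-fold. Thioredoxin, which holds ASK1 inactive, is listed as txn and also fell, to 169.8 ± 15.3 FPKM in heat, against 359.0 ± 9.78 FPKM in control (SD, n = 3 each). MAP3K4, a kinase that GADD45 proteins can activate, fell 2.03-fold. MAP3K19 was the most abundant MAP3K member in control, and lay below MAP3K8 in heat. MAP3K19 had 2.86, 3.73 and 3.80 FPKM in the heat libraries, against 10.16, 9.90 and 9.20 FPKM in the control libraries. Its log2 fold change was -1.52 ± 0.10 (SE, limma-voom adjusted p = 1.51e-19).

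Both MAP2K members fell, beside 41.9% falls over all tested genes. map2k6, an activator of p38, had 0.616, 0.373 and 0.36 FPKM in the heat libraries, against 1.65, 1.58 and 1.68 FPKM in the control libraries. The control libraries were nearly alike, and all heat libraries were well under them, a fall of 3.63-fold. MAP2K5, the activator of ERK5, fell 2.86-fold on 38 counts over the heat libraries and 85 over the control libraries.

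Among the MAP kinases themselves, JNK and ERK5 genes rose and a p38 gene fell. mapk8, which encodes JNK1, had 2.25, 3.19 and 2.38 FPKM in the heat libraries and 0.994, 1.12 and 1.18 FPKM in the control libraries. Heat replicate 2 was the highest, and the lowest heat library was still above the highest control library. MAPK9, which encodes JNK2, had 51, 60 and 31 counts in the heat libraries, against 6, 11 and 0 counts in the control libraries. Its fitted rise of 10.97-fold depended on the control libraries: it was 4.16-fold without control replicate 3 and 20.2-fold without control replicate 2. mapk7, which encodes ERK5, averaged 2.49 ± 0.447 FPKM in heat and 0.996 ± 0.0528 FPKM in control (SD, n = 3 each), a rise of 2.43-fold. mapk14a, which encodes p38 alpha, had 1.05, 1.27 and 0.693 FPKM in the heat libraries, against 2.026, 2.003 and 2.686 FPKM in the control libraries. The groups did not overlap, and its log2 fold change was -1.14 ± 0.26 (SE, limma-voom adjusted p = 7.19e-05). For ERK5, then, the gene of the kinase (mapk7) rose and that of its activator (MAP2K5) fell, while for p38 both mapk14a and map2k6 fell. The ERK5 contrast rests on few MAP2K5 counts and on a mapk7 call that did not hold with median-of-ratios scaling.

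The JNK scaffolds also went both ways. Mapk8ip1, whose product JIP1 assembles the JNK module, was the most abundant member of the class in heat. It had 4.47, 5.28 and 5.10 FPKM in the heat libraries, against 2.193, 2.141 and 2.196 FPKM in the control libraries. Mapk8ip3, the gene of JIP3, fell 3.26-fold at a very low level, with means of 0.0833 FPKM in heat and 0.271 FPKM in control. The calls of mapk7, mapk8 and Mapk8ip1 did not hold with median-of-ratios scaling (limma-voom adjusted p = 0.0547, 0.0817 and 0.0573).

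The 3 tested members of the MAPKAPK2 and RPS6KA families, kinases that act below the MAP kinases, rose, beside 58.1% rises over all tested genes. MAPKAPK2 encodes MK2, the kinase through which p38 stabilises many inflammatory mRNAs. Copy 1 had 2.52, 2.74 and 2.65 FPKM in the heat libraries and 0.84, 0.911 and 0.912 FPKM in the control libraries. Copy 2 had 2.02, 2.09 and 2.03 FPKM in the heat libraries, against 0.332, 0.117 and 0.476 FPKM in the control libraries. The copies were of similar level in heat, while in control copy 2 was the lower in every library. They rose 2.93-fold and 7.39-fold, and their summed level was 4.69 ± 0.148 FPKM in heat, against 1.196 ± 0.181 FPKM in control (SD, n = 3 each). Rps6ka3, which encodes RSK2, an ERK-activated kinase, rose 2.47-fold to 4.72 FPKM in heat, against 1.91 FPKM in control. Rps6ka2, the gene of a related kinase, had 6, 5 and 4 counts in the heat libraries and none in the control libraries. It was too low to test. Rps6ka2 was at least 3.91-fold higher in the heat group if control hid at most 3 counts and the heat counts are exact.

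**Figure D3:**
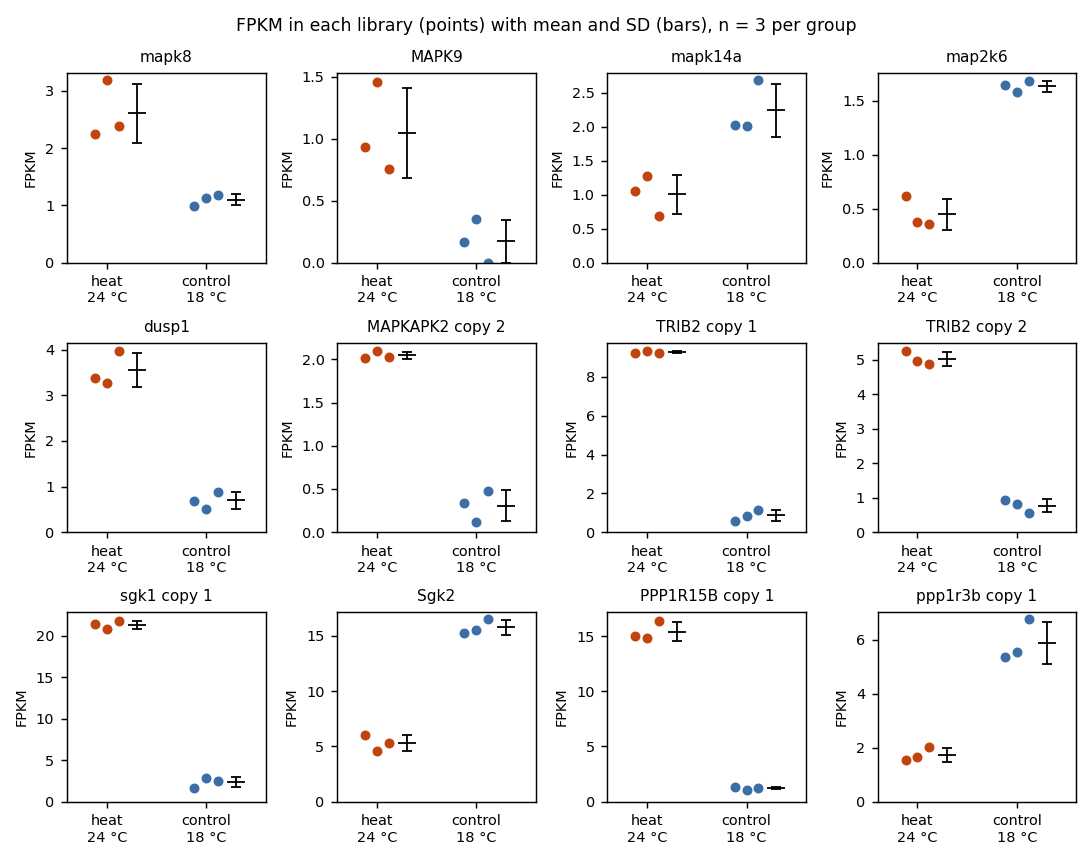
FPKM of 12 members in each heat library (left, orange) and each control library (right, blue), with the group mean and SD as black bars, on linear axes that start at 0. mapk14a, map2k6, Sgk2 and ppp1r3b copy 1 are lower in every heat library and the other 8 are higher.

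Among the DUSPs, 6 of 7 rose and 1 fell, beside 58.1% rises over all tested genes. With median-of-ratios scaling 4 rose, and so few genes give no result about the class. DUSP1 is an early-response phosphatase that acts on p38 and JNK, and it is listed under the symbols dusp1 and DUSP1. The gene written dusp1 had 3.39, 3.28 and 3.98 FPKM in the heat libraries, against 0.693, 0.509 and 0.884 FPKM in the control libraries. All heat libraries were far above the control libraries, and the log2 fold change was 2.35 ± 0.24 (SE, limma-voom adjusted p = 1.98e-12). The gene written DUSP1 had 0.81, 1.71 and 0.908 FPKM in the heat libraries and 0.241, 0.288 and 0.853 FPKM in the control libraries. It was the only member whose groups overlapped, because control replicate 3 lay above heat replicate 1 (exact permutation test, two-sided, p = 0.2, where 0.1 is the smallest that 3 against 3 libraries allow). DUSP8 and dusp8a, genes of phosphatases that prefer JNK and p38, rose 3.61-fold and 4.34-fold, and their summed level was 1.96 ± 0.251 FPKM in heat and 0.525 ± 0.153 FPKM in control (SD, n = 3 each). DUSP16, another JNK phosphatase gene, rose 2.31-fold, and its call did not hold with median-of-ratios scaling (limma-voom adjusted p = 0.205). The same scaling ended the call of the gene written DUSP1 (limma-voom adjusted p = 0.223).

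Dusp19 was the member of the class that fell. It encodes an atypical DUSP tied to the JNK module, and had 1.06, 0.446 and 0.725 FPKM in the heat libraries, against 3.14, 4.05 and 3.07 FPKM in the control libraries. The groups lay far apart, and the fall was 4.495-fold on 40 counts in heat and 138 in control. The most abundant DUSP in heat, dusp11, is not a MAP kinase phosphatase but acts on RNA 5' ends. It had 6.95, 8.86 and 7.69 FPKM in the heat libraries, against 3.46, 3.17 and 2.47 FPKM in the control libraries.

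All 3 Sprouty genes listed rose, beside 58.1% rises over all tested genes, and no spred gene was among the listed genes. SPRY4 copy 1 had 0.979, 1.02 and 0.868 FPKM in the heat libraries and 0.069, 0.225 and 0.068 FPKM in the control libraries. Its control level rested on 4, 13 and 4 counts, and the rise was 8.66-fold. SPRY4 copy 2 rose 2.98-fold and SPRY1 2.24-fold, and neither call held with median-of-ratios scaling (limma-voom adjusted p = 0.0862 and 0.204). The rule also took spryd4 and SPRYD7, which encode proteins with a SPRY domain and are not Sproutys. SPRYD7 rose 3.12-fold, and spryd4 fell 6.99-fold on 10 counts in heat and 59 in control. SPRYD7 was not called with median-of-ratios scaling (limma-voom adjusted p = 0.0661).

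Among the serum- and glucocorticoid-regulated kinases, sgk1 rose and Sgk2 fell. sgk1 encodes a kinase induced by glucocorticoids, osmotic stress and growth factors, which acts on ion transport and metabolism. Its copy 1 had 21.4, 20.8 and 21.8 FPKM in the heat libraries, against 1.67, 2.84 and 2.54 FPKM in the control libraries. The log2 fold change was 3.22 ± 0.14 (SE, limma-voom adjusted p = 5.15e-27), a rise of 9.33-fold. In turn, sgk1 copy 2 had 0.97, 1.78 and 2.76 FPKM in the heat libraries and 0.349, 0.508 and 0.36 FPKM in the control libraries. Its heat values were spread widely but did not overlap with control, and with median-of-ratios scaling the call was lost (limma-voom adjusted p = 0.0742). Sgk2 encodes a related kinase that is prominent in liver and kidney of mammals. It had 6.03, 4.61 and 5.28 FPKM in the heat libraries, against 15.3, 15.5 and 16.5 FPKM in the control libraries, a fall of 2.95-fold. Of the FPKM summed over the 3 listed genes, sgk1 copy 1 held 74.97% ± 1.76 in heat and 12.6% ± 2.71 in control, and Sgk2 held 18.6% ± 2.31 in heat and 85.2% ± 3.02 in control (SD, n = 3 each). The sum itself was 28.5 ± 1.304 FPKM in heat and 18.5 ± 1.10 FPKM in control.

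PIM1, the gene of a constitutively active survival kinase, had 10.3, 9.52 and 8.82 FPKM in the heat libraries, against 3.18, 3.21 and 3.18 FPKM in the control libraries. The control libraries were almost identical, and the rise was 2.998-fold.

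Both listed copies of TRIB2 rose, beside 58.1% rises over all tested genes. Tribbles proteins are pseudokinases that bind MAP2Ks and the ubiquitin ligase COP1 and steer C/EBP factors to degradation. TRIB2 copy 1 had 9.24, 9.32 and 9.23 FPKM in the heat libraries, against 0.597, 0.83 and 1.15 FPKM in the control libraries. Copy 2 had 5.26, 4.98 and 4.87 FPKM in the heat libraries, against 0.94, 0.812 and 0.558 FPKM in the control libraries. The heat libraries agreed closely for both copies, and the rises were 10.99-fold and 6.66-fold. Copy 1 held 64.8% ± 0.951 of the summed TRIB2 level in heat and 52.2% ± 14.3 in control (SD, n = 3 each), so the control split varied between libraries. Trib1 had 8, 3 and 8 counts in the heat libraries and none in the control libraries, so by the same limit it was at least 4.95-fold higher in the heat group. Its level in heat, 0.111 FPKM, was far below that of TRIB2.

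Regulatory subunits of PP1 made up the largest class, with 11 members, 6 rises and 5 falls, beside 58.1% rises over all tested genes. PPP1R15B directs PP1 to eIF2 alpha, whose dephosphorylation restores translation after stress. Copy 1 had 15.0, 14.8 and 16.4 FPKM in the heat libraries, against 1.31, 1.09 and 1.24 FPKM in the control libraries. Its log2 fold change of 3.63 ± 0.20 (SE, limma-voom adjusted p = 1.01e-22) was larger than that of either other copy. Copy 2 had 6.55, 6.82 and 5.66 FPKM in the heat libraries and 3.14, 3.14 and 2.92 FPKM in the control libraries. Copy 3 had 2.83, 2.73 and 2.60 FPKM in the heat libraries, against 0.961, 1.11 and 0.897 FPKM in the control libraries. All copies were higher in every heat library, but by unequal amounts, 12.4-fold, 2.07-fold and 2.76-fold. As the table assigns the reads, copy 1 held 62.9% ± 3.11 of the summed level in heat and 23.1% ± 2.30 in control, and copy 2 held 25.9% ± 2.64 in heat and 58.2% ± 0.533 in control (SD, n = 3 each). The copies named 2 and 3 carry an uncharacterised description beside the symbol, so whether all 3 are PPP1R15B genes could not be settled, and the shares are only those of the listed entries. The call of PPP1R15B copy 2 did not hold with median-of-ratios scaling (limma-voom adjusted p = 0.182).

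**Figure D4:**
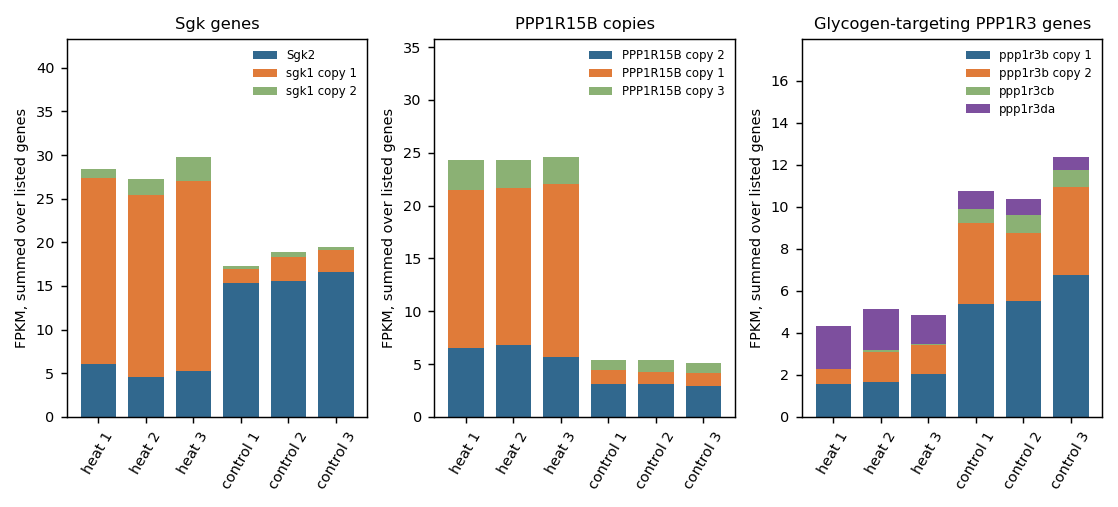
Stacked bars of FPKM summed over the listed genes of 3 families, for each heat library (left) and control library (right). sgk1 copy 1 fills most of the bar in heat and Sgk2 most of it in control, PPP1R15B copy 1 is the largest part in heat and copy 2 in control, and the PPP1R3 bars are shorter in heat with ppp1r3da as a larger part.

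Genes that target PP1 to glycogen fell in 3 of 4 cases, the copies of ppp1r3b among them, beside 41.9% falls over all tested genes. These subunits promote glycogen synthesis by bringing PP1 to glycogen synthase. The copies of ppp1r3b, the form typical of mammalian liver, were the most abundant in control. Copy 1 had 1.54, 1.64 and 2.03 FPKM in the heat libraries, against 5.35, 5.53 and 6.75 FPKM in the control libraries. Copy 2 had 0.749, 1.43 and 1.38 FPKM in the heat libraries, against 3.86, 3.23 and 4.18 FPKM in the control libraries. The falls were alike, 3.42-fold and 3.38-fold, and the groups did not overlap. ppp1r3cb, of the form known as PTG in mammals, had 0, 5 and 2 counts in the heat libraries and 25, 31 and 32 counts in the control libraries. Its fitted fall of 19.8-fold was 9.12-fold without heat replicate 1 and 35.0-fold without heat replicate 2. ppp1r3da rose 2.37-fold, with 2.05, 1.94 and 1.41 FPKM in the heat libraries and 0.866, 0.776 and 0.623 FPKM in the control libraries, and its call did not hold with median-of-ratios scaling (limma-voom adjusted p = 0.328). The summed level of the 4 genes was 4.78 ± 0.395 FPKM in heat and 11.2 ± 1.08 FPKM in control (SD, n = 3 each).

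PPP1R1B, known as DARPP-32, encodes a PP1 inhibitor controlled by cyclic AMP. Its copy 1 had the highest group mean of any member, in control, while in heat sgk1 copy 1 was higher. Copy 1 had 15.8, 19.4 and 17.1 FPKM in the heat libraries, against 34.9, 34.8 and 35.2 FPKM in the control libraries. Copy 2 had 5.03, 6.62 and 5.42 FPKM in the heat libraries, against 18.1, 18.7 and 17.1 FPKM in the control libraries. Both fell in every heat library, by 2.02-fold and 3.20-fold. The smallest absolute log2 fold change of any member in the authors' deposited table, 1.00278, belonged to copy 1, at the edge of their threshold. Ppp1r27 had 104, 78 and 88 counts in the heat libraries and 7, 1 and 8 counts in the control libraries. Its fitted rise was 15.4-fold, and 8.88-fold without control replicate 2. ppp1r9al, whose symbol resembles that of neurabin, rose 2.04-fold to 11.8 ± 0.513 FPKM in heat, against 5.76 ± 0.52 FPKM in control (SD, n = 3 each). That call did not hold with median-of-ratios scaling (limma-voom adjusted p = 0.105).

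All 3 listed regulatory subunits of PP2A rose, beside 58.1% rises over all tested genes. Ppp2r5b, of the B56 type, had 3.19, 2.96 and 3.17 FPKM in the heat libraries, against 0.5, 0.524 and 0.381 FPKM in the control libraries. PPP2R2C, of the B55 type, had 1.71, 2.23 and 1.93 FPKM in the heat libraries, against 0.309, 0.136 and 0.203 FPKM in the control libraries. Neither gene came close to overlapping between the groups, and the rises were 6.65-fold and 9.49-fold. ppp2r3a rose 2.59-fold from limma-voom, with means of 0.464 FPKM in heat and 0.17 FPKM in control, and was not called with median-of-ratios scaling (adjusted p = 0.202). Of the catalytic subunit, a PPP2CA gene rose 2.44-fold to 9.41 FPKM in heat, against 3.87 FPKM in control, and another PPP2CA gene fell 2.23-fold to 0.571 FPKM in heat, against 1.17 FPKM in control.

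The members can be set beside other genes of the pathway, taken from lists of names. Of the substrates and early-response targets of the MAP kinases, 25 of 27 tested genes rose and 2 fell, with a median log2 fold change of 2.67, beside 58.1% rises and a median of 1.13 over all tested genes. The most abundant in heat were mknk1 and an mknk2 gene, kinases that phosphorylate eIF4E downstream of ERK and p38, and JUN, a part of AP-1. mknk1 stood at 72.2 ± 4.60 FPKM in heat and 1.13 ± 0.117 FPKM in control. That mknk2 gene stood at 34.8 ± 1.01 FPKM in heat and 2.77 ± 0.149 FPKM in control (SD, n = 3 each). The JUN gene rose 6.88-fold to 33.7 FPKM in heat, against 4.91 FPKM in control. The 2 genes that fell were myc and KLF2, picked out here for their values, each under 1 FPKM in both groups, while mycb rose 2.90-fold.

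Inputs to the relay were mixed, beside 58.1% rises and a median log2 fold change of 1.13 over all tested genes. Of the RAS and RAF inputs 3 rose and 4 fell, with a median log2 fold change of -1.06. raf1a, the kinase that starts the ERK module, rose 2.12-fold, Shc2, an adaptor, fell 6.21-fold, and an MRAS gene rose 7.37-fold. Of the receptors and ligands 4 rose and 3 fell, with a median of 1.10. Errfi1, an inhibitor of the EGF receptor, rose 2.34-fold, the more abundant HGF gene rose 2.14-fold, and the copies of fgfr2 fell 2.39-fold and 3.14-fold. Of the stress inputs to JNK and p38, 6 rose and 4 fell, with a median of 1.12. TXNIP, which binds thioredoxin, fell 4.06-fold and 2.66-fold in its copies, beside the fall of txn given above. GADD45B, an activator of MAP3K4, rose 6.71-fold, and GADD45G fell 3.96-fold.

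Partners of SGK, PP1 and Tribbles gave 3 further lists, to be read beside 58.1% rises and a median log2 fold change of 1.13 over all tested genes. In the PI3K and AKT list 6 rose and 3 fell, with a median of 1.23, and the genes that fell were the 3 copies of PIK3R1, the regulatory subunit of PI3K, by 6.88-fold, 2.14-fold and 2.85-fold. The genes that rose were all under 2 FPKM, among them akt1, up 2.97-fold, and irs1, up 3.06-fold. In the catalytic phosphatase list 1 rose and 3 fell, with a median of -1.13. PPM1D fell 2.54-fold and PTPN6 fell 2.15-fold. All 15 tested genes of the integrated stress response list, several of them copies that share a symbol, rose, with a median of 2.36. This is the response in which eIF2 alpha is phosphorylated, the step that PPP1R15B reverses. ATF5 rose 14.9-fold in its most abundant copy, DDIT3 rose 2.52-fold in its, and the copies of atf4 rose 5.13-fold, 2.16-fold and 2.88-fold. The gene of PERK, eif2ak3, which phosphorylates eIF2 alpha under stress of the endoplasmic reticulum, rose 7.54-fold. With median-of-ratios scaling no tested gene of the 7 lists changed sign, which the authors' fold threshold fixed in advance. Over all tested genes this scaling gave a median log2 fold change of 0.24, and 46.5% of the genes called rose. The rises then numbered 23 in the substrate list, 13 in the stress response list and 2 in the PI3K and AKT list. The stress inputs to JNK and p38 had 4 rises, 4 falls and a median of 0.23. Receptors and ligands had 3 rises, 3 falls and a median of 0.21, and RAS and RAF inputs 2 rises and 4 falls. The calls of raf1a and of the more abundant HGF gene were lost (limma-voom adjusted p = 0.051 and 0.11).

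**Figure D5:**
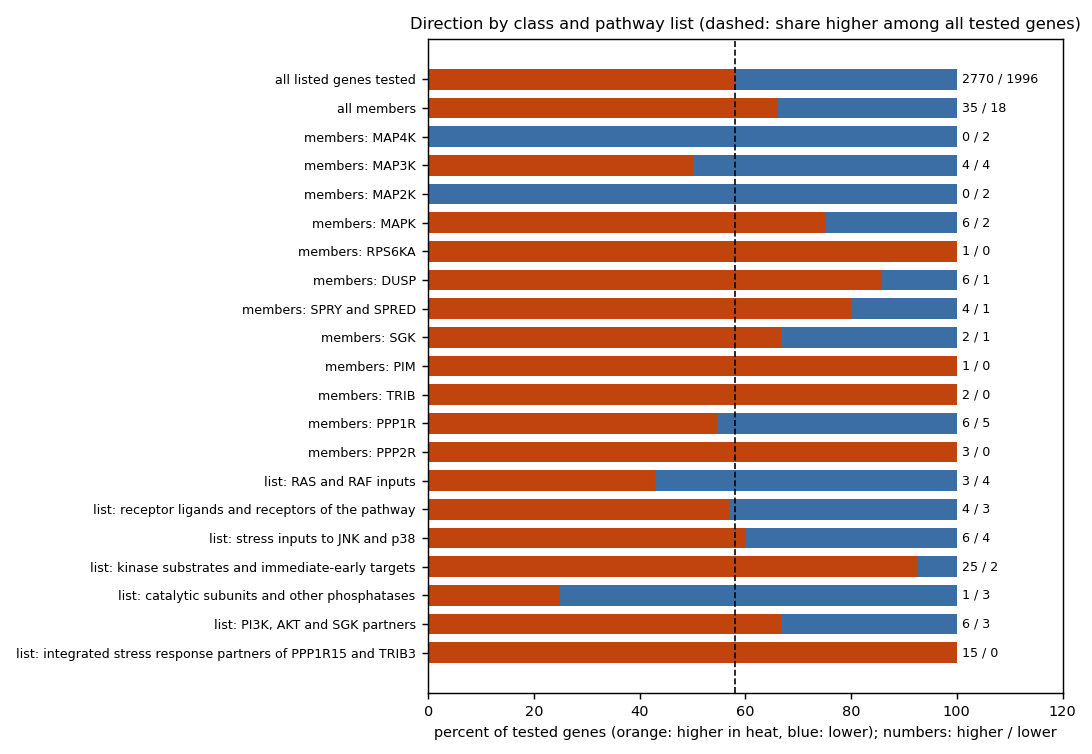
Percent of tested genes higher in heat (orange) and lower in heat (blue) for all listed genes, all members, each class of members and each pathway list, with the counts at the right as higher / lower. The dashed line marks the 58.1% of all tested genes that rose, and bars of small classes rest on as few as 1 gene.

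The annotation in the table gives the same relay a second description. MAPK signalling was the first pathway named for 23 members and 78 other listed genes. Of the members 22 were tested, and 14 rose and 8 fell, which is 63.6% rises with a median log2 fold change of 1.22. Of the other genes 75 were tested, and 54 rose and 21 fell, which is 72% rises with a median of 1.63. Over all tested genes 58.1% rose and the median was 1.13, so the members' values lay near that background. These counts cover only genes for which that pathway stood first, since longer entries are truncated.

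The listed genes held 2663575 to 3586127 counts in the heat libraries and 1409460 to 1421082 in the control libraries, and the depth of the whole libraries is unknown. Libraries of a group differed by more than counting noise, with a chi-square of 2.30 to 4.11 per gene between pairs. Defining genes of other cell types moved with the groups in part. Of 9 names of myeloid markers, only CD163, with 4 genes, and mmp9 were listed. The 4 of these genes that could be tested rose. The summed level of all 5 was 8.84 to 11.4 FPKM in the heat libraries and 0.827 to 0.954 FPKM in the control libraries. Of 8 lymphocyte names only IL7R was listed, and it rose 3.06-fold. Of 10 names for stroma and endothelium only col1a1b was listed, and it fell 2.48-fold. Of 2 listed ins genes, 1 could be tested and rose. A marker not listed may be unchanged, undetected or named otherwise, since the list holds only changed genes. No erythrocyte or muscle marker was listed. Of 14 names of hepatocyte markers, only HP, FGA, APOB and rbp4 were listed, with 6 genes. Of these 5 rose and 1 fell, beside 58.1% rises over all tested genes. A haptoglobin (HP) gene had the highest level of any listed gene, 6491 FPKM in heat, against 2298 FPKM in control. The gene that fell was rbp4, at 1998 FPKM in heat, against 5950 FPKM in control. Immune cells also express MAP3K8, Map3k14, PIM1 and dusp1, which were picked out here from the members that rose. The part of changed cell numbers in those rises was not tested.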

How the data were processed

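Per the labels' protocols, rainbow trout liver RNA was converted to cDNA and sequenced, and the submitters' processing notes name StringTie and Bowtie2 2.2.8. The genome build was not given in the sources used here, nor were the annotation and the authors' test. No coordinates or sequences are therefore printed. Ribosome profiling, named in the title of the series, was not analysed here. Per the file headers, the deposited table holds a read count and an FPKM value for each gene and library, and beside them the p-value, adjusted p and log2 fold change of the authors. Every field of the text is limited to 8 characters, so symbols and descriptions can be cut short: 10 member rows have a symbol of 8 characters. Identifiers are truncated too. Copies with one symbol are told apart only by their values, numbered here by the mean FPKM of their higher group. Counting may have divided reads among near-identical copies, which makes the level of a single copy uncertain. Whether reads were counted by strand is not given in the sources used here. Of the 44 symbols among the members, case ignored, 17 stand in the RefSeq gene table of USDA_OmykA_1.1. The 822 lines of wrapped text were left out.

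Every count read was a whole number, but a separate check of units could not split the fixed-width columns. For that reason limma-voom (limma 3.58.1, R 4.3.3) took the place of the count models usual for such data. Dividing count by FPKM gave relative library totals, as the median over 451 genes that reached 200 counts and 5 FPKM in every library. Relative to control replicate 1, the totals were 1.55, 1.17 and 1.14 for heat replicates 1 to 3 and 0.999 and 1.02 for control replicates 2 and 3. Testing took genes that reached 10 counts in at least 3 libraries, and p-values were adjusted over all of these by Benjamini-Hochberg. Folds given are limma-voom's, and levels are FPKM means with SD. With no counts in a group, the group was set to 3 counts in all. The bound covers counting error in that empty group only, with the counts of the other group taken as exact. Every member is described by class, with library values mainly for those of highest level or largest change in a class; the pathway lists give their 3 most abundant genes and any whose copies went opposite ways, and genes beyond these were named after their values were seen. Members and lists were chosen with earlier results of these data known. Same-numbered libraries were not paired. Other software was matplotlib 3.10.9, scipy 1.17.1, pandas 2.3.3 and numpy 2.4.6 under Python 3.11.15. The alternatives were other scalings, count filters, a limma fit of log2 FPKM with a pseudocount of 0.1 or 1, each library left out, a replicate block, and other memberships.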

Additional observations from a re-analysis of the deposited data

How the results depend on the processing

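With median-of-ratios scaling, whose assumption is not met in this list, 20 members rose instead of 35, while 18 fell under either. Over all tested genes 1733 rose instead of 2770, and 1996 fell under either. The 15 members no longer called kept their direction, as the list fixed. The rises numbered 4 in the DUSP, 2 in the MAP3K, 3 in the MAPK, 3 in the PPP1R and 2 in the PPP2R class. They numbered 1 in the SGK and 1 in the SPRY class, with those of the other classes as before. TMM scaling shifted the median of all genes by -0.49 and changed no member's call. Between 34 and 37 members rose and 13 to 18 fell under the other filters and the FPKM fits. Rises made up 66.7% to 72.3% of the members called and 57.1% to 61.3% of all genes called. The counts of 34 and 13 came from a filter of at least 30 counts in 3 libraries. It left 47 members to test, and all 47 kept their call. With 1 row per symbol 27 rose and 15 fell, and without the PP1 and PP2A subunits 26 rose and 13 fell, beside 58.1% rises over all tested genes. Without spryd4, SPRYD7 and dusp11, an alternative chosen after seeing the data, 33 rose and 17 fell. Leaving out each library in turn gave 35 rises and 18 falls in all 6 cases. Of all 4766 genes tested, 2763 to 2769 rose and 1990 to 1996 fell in these cases, so the list fixed that stability. Such omissions moved the fold of MAPK9, ppp1r3cb and Ppp1r27 by over 1.5 times. The replicate block gave 35 rises and 18 falls, with 2770 rises and 1996 falls over all tested genes. Same-numbered libraries had correlations of deviations of 0.0267, 0.0116 and -0.0093, so the numbers were taken as names only. Not every library correlated best with its own number. Members under about 100 counts over a group, such as MAP2K5, Map4k5 and Mapk8ip3, are among the less precise. The largest SEs of a log2 fold change were those of ppp1r3cb, MAPK9 and spryd4, at 0.733, 0.717 and 0.70.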
